A study of Dugesia japonica with 16 samples.

Results

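The 27 assembly components described here had higher RNA levels in every library treated with a cysteinyl conjugate than in any vehicle library of regenerating *Dugesia japonica*. A component is the group of transcripts that the assembler kept together, and its level is the sum of the TPM (a length-corrected share of the transcripts in a library) of its transcripts. The members were chosen from 16873 components by their values in all 16 libraries, on the scale L = log2(TPM sum + 1). Of the 15307 components with a mean vehicle sum of at least 1 TPM, 183 had mean L at least 0.8 above vehicle with both PCTR3 and RCTR3. In 167 of these every PCTR3 and every RCTR3 library lay above every vehicle library, and in 27, or 16.2% of the 167, every MCTR3 library did so as well. No minimum size was asked of MCTR3. The values against vehicle therefore chose the members and are given as a description. The deposited table pairs no identifier with a gene name, so the components are named by identifier and no role is given to them.

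*D. japonica* is a planarian, a freshwater flatworm whose cut body can rebuild the head. After amputation, planarian stem cells called neoblasts divide and their descendants build the new tissue, while wound-induced genes and positional signals set which structure is made. PCTR3, RCTR3 and MCTR3 are the protectin, resolvin and maresin conjugates in tissue regeneration, peptide-lipid mediators made from docosahexaenoic acid and known for speeding the resolution of inflammation and the regrowth of planarian heads. They carry cysteinyl and hydroxyl groups on different carbons, and RCTR3 carries an additional hydroxyl group.

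All groups were posterior pieces of worms starved for 7 days, kept at 20 °C, cut behind the eyes and collected 48 h later. The 4 groups of 4 libraries had PCTR3 at 10 nM, RCTR3 at 10 nM, MCTR3 at 10 nM, or vehicle (0.1% ethanol). The labels give neither the number of worms in a library nor whether libraries came from separate batches of worms, so the p-values rest on differences between libraries that may be technical replicates. PCTR3 and RCTR3 libraries are numbered 9 to 16 and MCTR3 and vehicle libraries 1 to 8, so a difference across these sides cannot be told apart from position in the numbering. PCTR3 against RCTR3 and MCTR3 against vehicle each lie within 1 side. The numbers of every group are consecutive, however, so these differences cannot be told apart from position in the numbering either.

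Some libraries stood apart in these components. Vehicle replicate 4 was the lowest vehicle library for 21 of the 27, and it also had the highest TPM sum of any library (1129 kTPM, or kilo-TPM, in a range that began at 926.1) and the fewest transcripts at 1 TPM or more (24196, in a range up to 26124). PCTR3 replicate 2 was the highest PCTR3 library for 20 of the 27 and RCTR3 replicate 1 the highest RCTR3 library for 20, while PCTR3 replicate 3 was the lowest PCTR3 library for 20. Over all 15762 components tested, PCTR3 replicate 2 was highest of its group for 30.2% and RCTR3 replicate 1 for 28.5%, while PCTR3 replicate 3 was lowest for 27.2%. Vehicle replicate 4 was lowest of its group for 29.6% and highest for 40.1%. The choice of members turned on single libraries: 44, 67 and 15 components met the conditions without vehicle replicates 1, 3 and 4, 15 without PCTR3 replicate 2 and 47 without MCTR3 replicate 4. All 27 remained among the 67 and the 47, 26 among the 44, and 14 in each set of 15. Read depth is unknown because TPM keeps none.

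The summed level of the 27 components was 1464 ± 360.0 TPM with PCTR3, 1480 ± 261 TPM with RCTR3, 892.0 ± 17.4 TPM with MCTR3 and 734 ± 78.9 TPM in vehicle (SD, n = 4 libraries each). They ranged from rare to abundant: the mean vehicle sum ran from 1.56 to 196 TPM with a median of 11.8, against a median of 16.8 over all components that met the vehicle minimum. In vehicle, 4 members were at 50 TPM or more and 8 were under 5 TPM. The lowest value of any member in any library was 1.03 TPM, and all 27 passed the filter of at least 1 TPM in at least 4 libraries that the tests below used. The members carry 27 different component numbers. Because the tissue was a mixture of cell types, more cells of a type and more RNA per cell cannot be told apart.

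**Figure D1:**
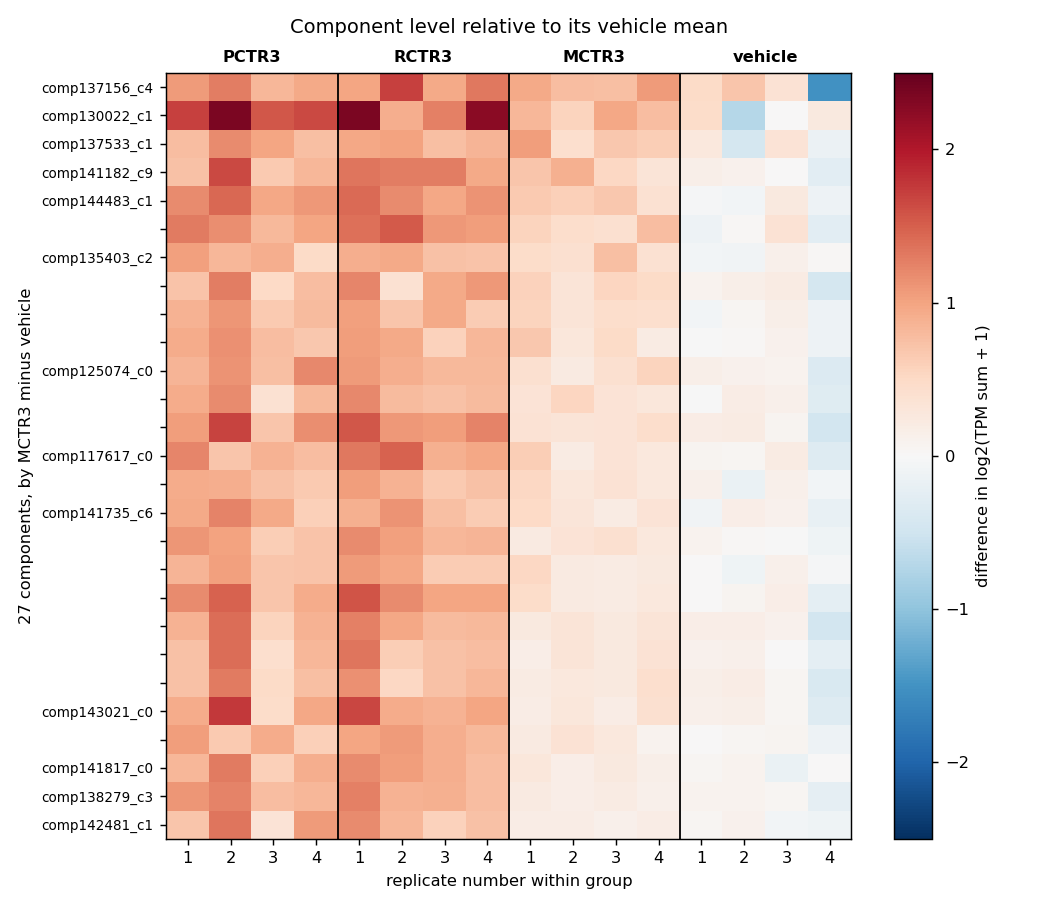
Difference in L from the component's vehicle mean (colour) for the 27 components (rows, ordered by MCTR3 minus vehicle) in the 16 libraries (columns, by group and replicate number). Some of the rows named in the text carry their identifiers. Values are darkest with PCTR3 and RCTR3, paler with MCTR3, and lowest in vehicle replicate 4 for 21 of the 27 rows.

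With PCTR3 the members' change in L ran from 0.81 to 1.82 (median 0.91), with RCTR3 from 0.81 to 1.69 (median 0.95), and with MCTR3 from 0.17 to 0.89 (median 0.36). Over all tested components the medians of the same differences were 0.0065 with PCTR3, 0.0078 with RCTR3 and -0.0041 with MCTR3. As ratios of mean TPM the members' medians were 1.98 with PCTR3, 2.03 with RCTR3 and 1.30 with MCTR3, all over vehicle. At least 2-fold higher mean TPM was seen for 13 members with PCTR3 and 15 with RCTR3, and at least 1.5-fold for 7 with MCTR3. In limma, a linear model fitted across all components with Benjamini-Hochberg adjusted p under 0.05 as a call, all 27 were higher with PCTR3 and all 27 with RCTR3. Over all components 19.2% and 21.7% were called higher in these contrasts and 20.1% and 23% lower. With every library rescaled to a common TPM sum the split was 32.1% higher and 10.4% lower with PCTR3 and 38.0% higher and 11.2% lower with RCTR3. Because the rule used the same contrasts, nothing is read from these counts.

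The component with the largest mean change over the 3 compounds was comp130022_c1, made of 1 transcript. It had 13.6, 21.9, 11.9 and 12.9 TPM with PCTR3, 21.7, 7.30, 9.58 and 20.3 TPM with RCTR3, 6.89, 5.50, 7.71 and 6.56 TPM with MCTR3, and 5.10, 1.71, 3.46 and 4.28 TPM in vehicle. Its RCTR3 libraries split into a high and a low pair, the lowest PCTR3 library lay above every MCTR3 library, and 1 RCTR3 library fell within the MCTR3 range. The next largest was comp137156_c4, with 20.3, 24.1, 17.3 and 18.9 TPM with PCTR3 and 19.5, 32.5, 18.8 and 24.5 TPM with RCTR3. It had 18.7, 16.6, 16.4 and 20.4 TPM with MCTR3, against 13.3, 15.6, 12.1 and 2.58 TPM in vehicle. The 3 compound groups of comp137156_c4 overlapped, and its vehicle mean was pulled down by replicate 4. Without that library its change in L was 0.53 with PCTR3, 0.73 with RCTR3 and 0.38 with MCTR3, in place of 1.03 with PCTR3, 1.24 with RCTR3 and 0.89 with MCTR3.

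The most abundant member in vehicle was comp142481_c1. It had 319, 499, 248 and 412 TPM with PCTR3, 447, 347, 294 and 324 TPM with RCTR3, 224, 222, 214 and 222 TPM with MCTR3, and 202, 212, 188 and 183 TPM in vehicle. The 4 groups formed 3 steps with no overlap, PCTR3 and RCTR3 together at the top, MCTR3 between, and vehicle at the bottom. The gap between MCTR3 and vehicle was narrow, since the lowest MCTR3 library lay just above the highest vehicle library. comp143021_c0, the next most abundant, averaged 231 ± 94.9 TPM with PCTR3, 238 ± 70.3 TPM with RCTR3, 129 ± 9.12 TPM with MCTR3 and 107 ± 15.4 TPM in vehicle (SD, n = 4).

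**Figure D2:**
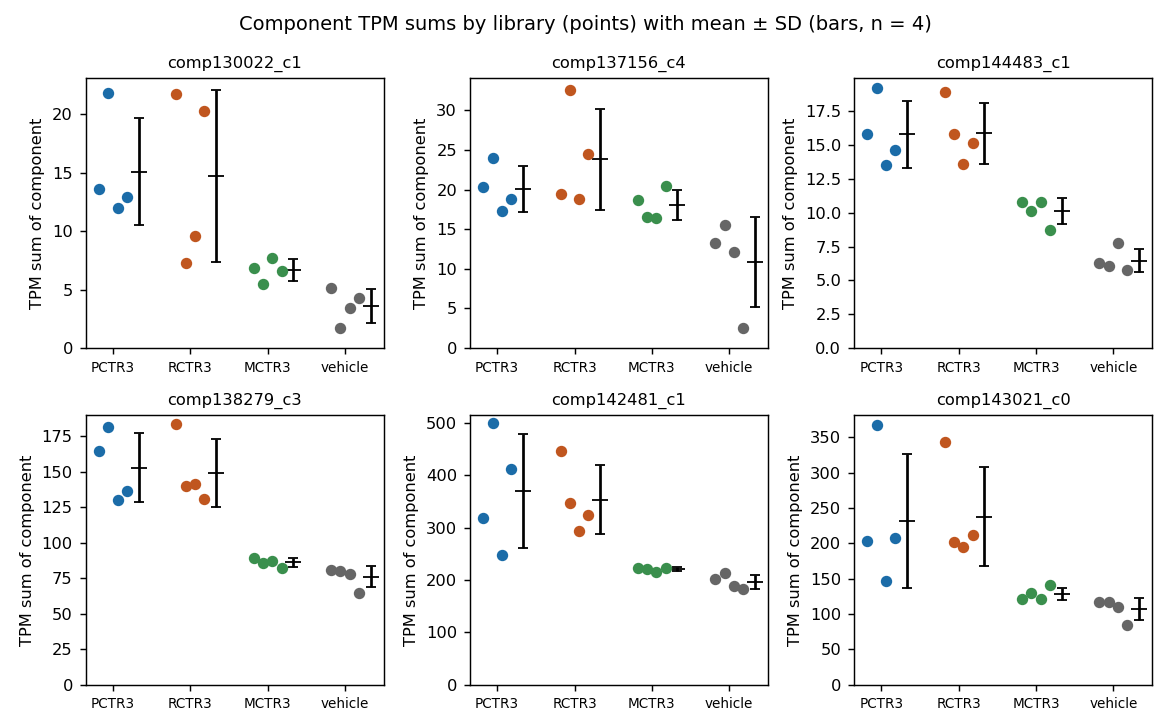
TPM sums of 6 named components in each library (points) with the mean ± SD of the 4 libraries beside them (bars), for PCTR3, RCTR3, MCTR3 and vehicle from left to right. In all 6 every compound library lies above every vehicle library, and the vehicle spread of comp137156_c4 comes from 1 library at 2.58 TPM.

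At the edge of the size condition, comp131661_c0 was just inside, with changes in L of 0.81 with PCTR3, 0.82 with RCTR3 and 0.36 with MCTR3. comp134802_c1 was just outside, with 0.7996 with PCTR3, 0.85 with RCTR3 and 0.25 with MCTR3. Without any size condition, 286 components had every compound library above every vehicle library, of which 71 had a smaller PCTR3 or RCTR3 change between 0.5 and 0.8 and 188 one under 0.5.

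For MCTR3 the rule asked only for the order of the libraries. None of the 27 passed the threshold for MCTR3 against vehicle in limma, where the lowest adjusted p was 0.509, and none did under any of the other settings tried. An unadjusted limma p under 0.05 was found for 19 of the 27 and for 9.57% of all tested components, of which 0 were called. Every MCTR3 library above every vehicle library, the condition the rule asked, held for 2.84% of all tested components, as did the same order for 16.1% with PCTR3 and 19.1% with RCTR3. The 95% interval of the MCTR3 change in L reached above 1 for 3 members and lay below 1 for 24. For members of low TPM, a change of 1 in L is more than a 2-fold change in TPM.

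The gap between the groups was small for most members. The lowest MCTR3 library exceeded the highest vehicle library by a ratio of 1.004 to 1.22, with a median of 1.06. The MCTR3 change in L was under 0.3 for 10 members, 0.3 to 0.5 for 11 and over 0.5 for 6. Without vehicle replicate 4 the members' median MCTR3 change fell to 0.27 and the number at an unadjusted limma p under 0.05 to 13. Over all 15762 tested components that number fell from 1509 to 640. For 6 members the MCTR3 change was more than 1.5 times as large with that library as without it. The members' median change was 0.83 for PCTR3 and 0.84 for RCTR3 without that library.

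comp144483_c1 had the lowest p for MCTR3. It stood at 15.8, 19.2, 13.5 and 14.7 TPM with PCTR3, at 18.9, 15.8, 13.6 and 15.2 TPM with RCTR3, at 10.8, 10.2, 10.8 and 8.71 TPM with MCTR3, and at 6.28, 6.04, 7.76 and 5.79 TPM in vehicle. MCTR3 sat clear of both sides, with a change in L of 0.58 (SE 0.11; limma adjusted p = 0.509, 0.226 to 0.993 over the other settings). The next lowest p belonged to comp135403_c2, with 7.79 ± 1.36 TPM with PCTR3, 7.84 ± 0.747 TPM with RCTR3, 6.03 ± 0.894 TPM with MCTR3 and 3.97 ± 0.350 TPM in vehicle (SD, n = 4). Its MCTR3 change in L was 0.49 (SE 0.11; limma adjusted p = 0.509).

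MCTR3 reached between 18.7% and 77.9% of the mean PCTR3 and RCTR3 change in L, with a median of 37.1%. The share was 50% or more for 6 members. It was highest for comp137156_c4 (77.9%) and comp137533_c1 (75.7%), and lowest for comp138279_c3 (18.7%) and comp142481_c1 (20.0%). Without vehicle replicate 4 it was 60.2% for comp137156_c4 and 12.04% for comp138279_c3. comp137533_c1 had 3.72, 5.24, 4.42 and 3.65 TPM with PCTR3, 4.36, 4.55, 3.60 and 3.94 TPM with RCTR3, 4.68, 2.68, 3.36 and 3.21 TPM with MCTR3, and 2.29, 1.03, 2.46 and 1.47 TPM in vehicle. One MCTR3 library of this component lay above 3 of its 4 PCTR3 libraries and all of its RCTR3 libraries. For the 140 components that met the PCTR3 and RCTR3 conditions but not the MCTR3 condition, the median share was 25.5% and the MCTR3 mean was above the vehicle mean in 137. In 40 of those 140, only 1 MCTR3 library was at or below the highest vehicle library.

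**Figure D3:**
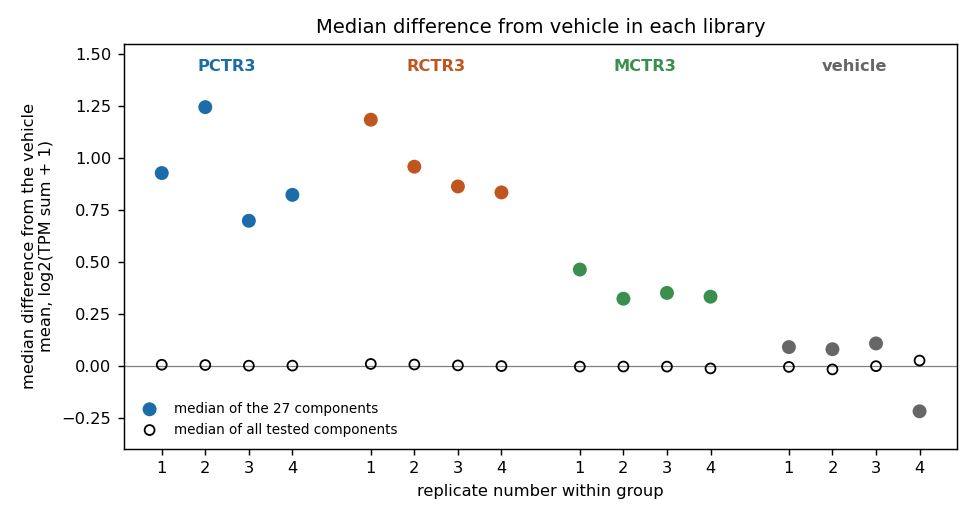
Median over the 27 components (filled) and over all 15762 tested components (open) of the difference in L from the vehicle mean, for each library by group and replicate number. The median of the 27 is 0.70 to 1.25 with PCTR3, 0.83 to 1.19 with RCTR3, 0.32 to 0.46 with MCTR3 and -0.22 to 0.11 in vehicle, while that of all components stays near 0.

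At the same dose and time, no difference between PCTR3 and RCTR3 was called in any of the 27. The rule asked the same size and order of both compounds against one vehicle mean, which removes components that rise with 1 of them alone, so these values are a description. The 3 compound pairs were each fitted across all components. The difference in L ran from -0.28 to 0.13 with a median of -0.025 over the members, against 0.0028 over all tested components. No member was called in limma (lowest adjusted p 0.9995) and none had an unadjusted p under 0.05. Over all components 0 were called and 3.03% had an unadjusted p under 0.05. With replicate as a block, 1 member had such a p. The number was also 1 without PCTR3 replicate 1, RCTR3 replicate 3 or RCTR3 replicate 4, and 2 without PCTR3 replicate 2. The libraries of both compounds overlapped for all 27 members, where every PCTR3 library lay above every RCTR3 library for 0.939% of components and below for 0.926%. In TPM sum + 1, the 95% interval of the difference lay within 2-fold for all 27 and within 1.5-fold for 24. Smaller differences may exist, and in TPM itself the limits are wider for members of low level. The intervals had a median half-width of 0.30.

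On the RCTR3 side, comp117617_c0 had the lowest p, with 51.4, 35.2, 40.1 and 37.2 TPM with PCTR3 and 55.3, 61.9, 40.6 and 42.9 TPM with RCTR3. Its MCTR3 libraries had 33.5, 25.1, 27.8 and 25.9 TPM and its vehicle libraries 22.5, 22.4, 24.99 and 17.1 TPM. PCTR3 replicate 1 lay within the RCTR3 range, and the difference in L was -0.28 (95% interval -0.58 to 0.027; limma adjusted p = 0.9995). comp141182_c9 followed with 4.17 ± 1.86 TPM with PCTR3 and 4.94 ± 0.685 TPM with RCTR3 (SD, n = 4), a difference in L of -0.25 (95% interval -0.64 to 0.14). On the PCTR3 side were comp125074_c0, with 17.7 ± 2.81 TPM with PCTR3 and 16.5 ± 1.53 TPM with RCTR3 (difference in L 0.085, 95% interval -0.17 to 0.33), and comp141735_c6. For comp141735_c6 the difference of 0.083 (95% interval -0.20 to 0.36) became -0.020 without PCTR3 replicate 2. The other 3 differences also moved by more than 1.5 times with 1 library left out, to -0.17 for comp117617_c0 without RCTR3 replicate 2, to -0.48 and -0.15 for comp141182_c9 without PCTR3 replicates 2 and 3, and to between 0.0087 and 0.16 for comp125074_c0, the lowest without PCTR3 replicate 4 and the highest without PCTR3 replicate 3.

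Against MCTR3, PCTR3 was higher for 22 of the 27 members and RCTR3 for 24 (limma adjusted p under 0.05), where 9.48% and 13.5% of all components were called higher and 9.45% and 14.3% lower. With libraries rescaled to equal TPM sums, 13.2% and 21.9% of all components were called higher and 5.63% and 8.10% lower. The rule asked a size of PCTR3 and RCTR3 and none of MCTR3, which favours such differences, so these counts are a description. The 22 were all among the 24. The median difference in L over the members was 0.55 for PCTR3 minus MCTR3 and 0.60 for RCTR3 minus MCTR3, against 0.0040 and 0.0067 over all components. Every PCTR3 library was above every MCTR3 library for 20 members, against 10.5% of all components (12.3% had every one below), and every RCTR3 library for 21, against 15% (16.9% below). Both held for 19. The limma calls also turned on single libraries. Without PCTR3 replicate 2, 14 members in place of 22 were called higher with PCTR3 than with MCTR3. Without RCTR3 replicate 1, 17 in place of 24 were called higher with RCTR3 than with MCTR3.

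comp138279_c3 differed most clearly. It had 164, 181, 130 and 136 TPM with PCTR3, 184, 139.98, 141 and 130 TPM with RCTR3, 89.3, 85.4, 87.1 and 82.5 TPM with MCTR3, and 81.0, 80.2, 78.2 and 65.0 TPM in vehicle. PCTR3 and RCTR3 stood far above an MCTR3 group that lay just over vehicle. Its difference in L was 0.81 for PCTR3 minus MCTR3 (SE 0.11; limma adjusted p = 0.00192, 0.000378 to 0.00979 over the other settings) and 0.77 for RCTR3 minus MCTR3 (SE 0.11; limma adjusted p = 0.000527). comp141817_c0 was next, with 63.1 ± 13.5 TPM with PCTR3, 65.8 ± 8.11 TPM with RCTR3, 38.0 ± 1.94 TPM with MCTR3 and 32.7 ± 2.53 TPM in vehicle (SD, n = 4). Its differences from MCTR3 were 0.70 for PCTR3 (limma adjusted p = 0.00269) and 0.77 for RCTR3 (limma adjusted p = 0.000650).

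The 3 members called in neither of these contrasts, named after their values were seen, were comp137156_c4, comp137533_c1 and comp140250_c1. comp140250_c1 had 21.7 ± 5.65 TPM with PCTR3, 23.2 ± 5.58 TPM with RCTR3, 16.6 ± 1.27 TPM with MCTR3 and 11.8 ± 2.42 TPM in vehicle (SD, n = 4). Its differences in L from MCTR3 had 95% intervals of -0.044 to 0.72 for PCTR3 (limma adjusted p = 0.199) and 0.044 to 0.81 for RCTR3 (limma adjusted p = 0.0876).

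**Figure D4:**
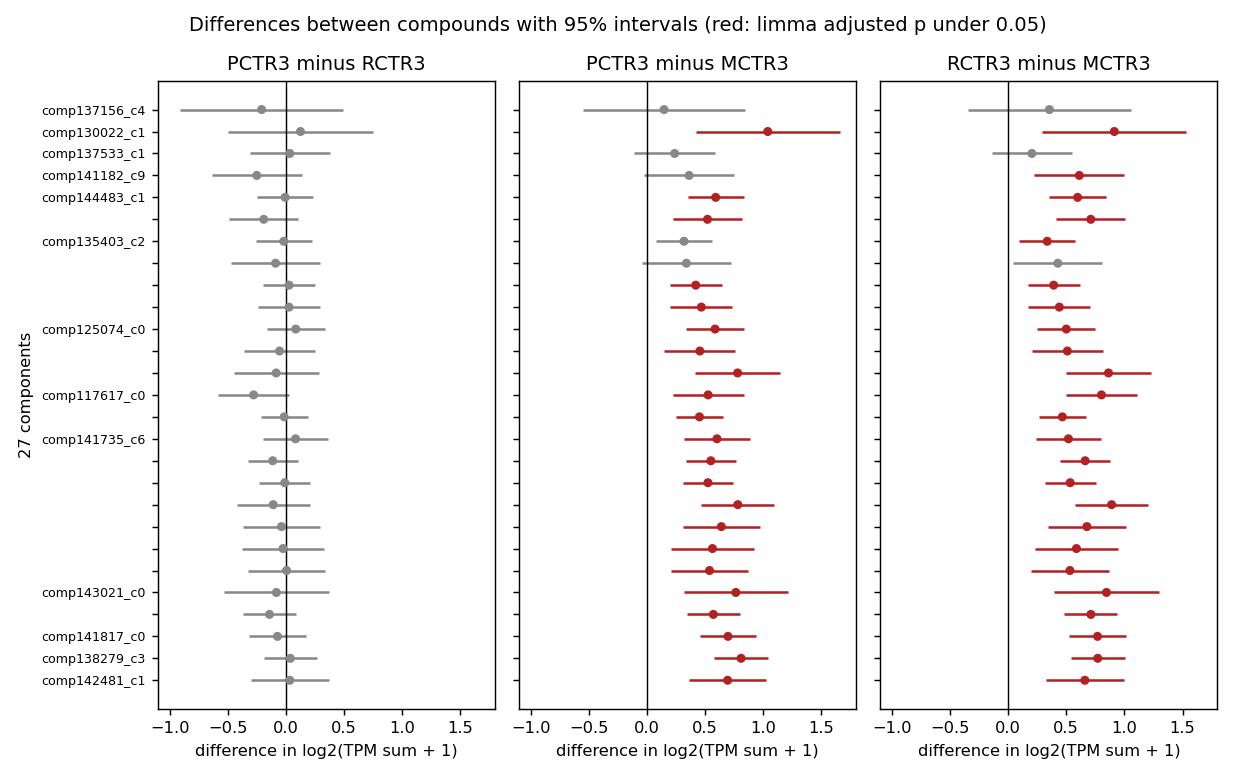
Difference in L between compounds (points) with its 95% interval (lines) for the 27 components, ordered from the largest MCTR3 change against vehicle at the top to the smallest at the bottom; red marks a limma adjusted p under 0.05. No PCTR3 minus RCTR3 difference is called, while 22 PCTR3 minus MCTR3 and 24 RCTR3 minus MCTR3 differences are.

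The members varied together from library to library within a group. The mean pairwise correlation of their deviations from the 4 group means of L was 0.466 over the 16 libraries, against 0.0037 over all tested components, and 0.460 against 0.0047 after median centring of each library. The rule used the values of single libraries, which can favour members with shared deviations. These components also share libraries and their scaling, so the value is a description. The spread between replicates was wider with PCTR3 and RCTR3 than with MCTR3: the median SD of L was 0.236 with PCTR3, 0.216 with RCTR3, 0.115 with MCTR3 and 0.173 in vehicle. Over all tested components it was 0.131 with PCTR3, 0.120 with RCTR3, 0.0976 with MCTR3 and 0.127 in vehicle. The SD was larger with PCTR3 than with MCTR3 for 25 members and larger with RCTR3 than with MCTR3 for 21, against 64.7% and 61.4% of all tested components. The rule asked every MCTR3 library to lie above vehicle at any size of change, which itself favours members with a narrow MCTR3 spread.

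The rule used component sums and not how a sum divides among transcripts. A sum that rises through 1 transcript also changes its shares, so the rule can favour share changes with PCTR3 and RCTR3. The counts below are therefore a description. The 27 members hold 58 transcripts, 14 members are single transcripts, as are 54.5% of tested components, and 10 members have 2 or more transcripts that passed the filter. Shares were tested on the log2 ratio of a transcript to the rest of its component in limma, adjusted over 18553 transcripts of 5801 components. At least 1 transcript changed its share for 3 of the 10 members with PCTR3 and for 6 with RCTR3 against vehicle, where 16.6% and 23.7% of components did. Against MCTR3 this held for 2 members with PCTR3 and 3 with RCTR3, where 3.98% and 9.08% of components had a called transcript. With MCTR3 against vehicle and with PCTR3 against RCTR3 no share was called, in the members (2 and 3 of 31 transcripts at an unadjusted limma p under 0.05) or over all components (5.88% and 4.18%). Without vehicle replicate 4 the counts of members against vehicle were 1 with PCTR3 and 1 with RCTR3. Over all 5801 components they were then 450 and 746, in place of 961 and 1375. The count of members with PCTR3 was also 1 without PCTR3 replicate 1 or 2, where 489 and 431 components were called. That with RCTR3 was 2 or 3 without any 1 of vehicle replicates 1 to 3 or of the RCTR3 libraries. Between 834 and 1203 components were called in those fits. comp143021_c0 was called in both contrasts under every setting run. Reads that similar transcripts share must be divided between them by estimation, so the share of a single transcript is less certain than the sum.

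In comp143021_c0, made of 10 transcripts, the gain of 1 transcript with PCTR3 and RCTR3 was nearly as large as that of the whole sum. comp143021_c0_seq11 had 103, 263, 34.4 and 99.7 TPM with PCTR3 and 233, 98.5, 81.3 and 96.6 TPM with RCTR3. It had 1.99, 14.4, 8.08 and 17.5 TPM with MCTR3, against 3.34, 1.17, 1.36 and 2.75 TPM in vehicle. PCTR3 and RCTR3 overlapped each other and lay above all other libraries, and MCTR3 replicate 1 lay within the vehicle range. Its gain over vehicle was 99.2% of the component's net gain with PCTR3 and 96.0% with RCTR3. comp143021_c0_seq5, the leading transcript in vehicle, had 83.9 ± 6.24 TPM with PCTR3, 87.2 ± 7.797 TPM with RCTR3, 96.2 ± 6.35 TPM with MCTR3 and 82.4 ± 17.2 TPM in vehicle (SD, n = 4).

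The seq11 share of the component was 48.4% ± 19.7 with PCTR3, 51.0% ± 11.7 with RCTR3, 7.95% ± 4.88 with MCTR3 and 2.08% ± 1.13 in vehicle (SD, n = 4). The log2 ratio to the rest rose by 5.28 with PCTR3 (SE 0.67; limma adjusted p = 0.00102) and by 5.46 with RCTR3 (SE 0.67; limma adjusted p = 0.000657, 0.000320 to 0.00284 over the other settings). It was higher by 3.66 with PCTR3 than with MCTR3 (limma adjusted p = 0.0240, 0.00819 to 0.0805 over the other settings) and by 3.84 with RCTR3 than with MCTR3 (limma adjusted p = 0.0116). The call against MCTR3 with PCTR3 was lost without MCTR3 replicate 3 or without PCTR3 replicate 1 or 2. The seq5 share was 40.6% ± 15.8 with PCTR3, 38.7% ± 9.83 with RCTR3, 74.9% ± 4.49 with MCTR3 and 76.1% ± 6.20 in vehicle (SD, n = 4), and its log2 ratio fell by 2.37 with RCTR3 against vehicle (SE 0.44; limma adjusted p = 0.00500). With MCTR3 the component had a net gain of 21.1 TPM, and 5 of its 10 transcripts had a higher mean than in vehicle. The gain was 13.8 TPM for seq5 and 8.34 TPM for seq11, and falls of other transcripts offset a part of these gains. Without vehicle replicate 4, where seq5 was low, the order of these gains turned round, with 5.23 TPM for seq5 and 8.53 TPM for seq11.

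**Figure D5:**
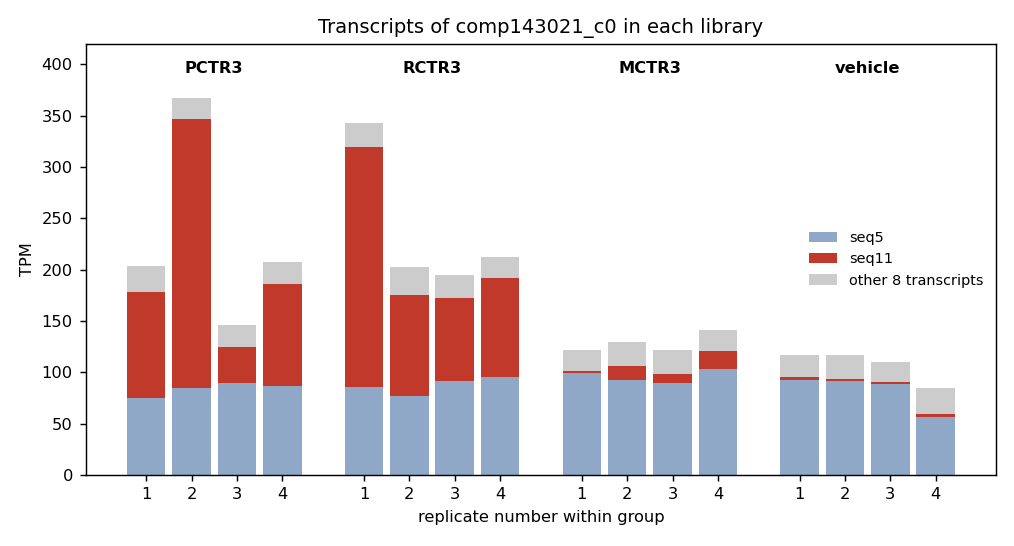
TPM of the transcripts of comp143021_c0 in each library, stacked as seq5, seq11 and the other 8 transcripts, by group and replicate number. seq11 reaches 34.4 to 263 TPM with PCTR3 and 81.3 to 233 TPM with RCTR3 and stays at or under 17.5 TPM with MCTR3 and 3.34 TPM in vehicle, while seq5 is between 75.1 and 103.6 TPM in all libraries but vehicle replicate 4 (56.7 TPM).

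comp138279_c3_seq2 held 61.9% ± 4.03 of its component with PCTR3, 61.4% ± 5.45 with RCTR3, 47.97% ± 0.809 with MCTR3 and 46.8% ± 5.17 in vehicle (SD, n = 4). Its log2 ratio rose by 0.88 with PCTR3 against vehicle (SE 0.20; limma adjusted p = 0.0177). The call was lost without vehicle replicate 4 (limma adjusted p = 0.0569), PCTR3 replicate 1 (0.0515) or PCTR3 replicate 2 (0.0593). comp144407_c2_seq1 held 80.2% ± 7.70 of its component with PCTR3, 81.1% ± 6.10 with RCTR3, 93.7% ± 3.17 with MCTR3 and 92.8% ± 1.74 in vehicle (SD, n = 4). Its log2 ratio was lower by 1.79 with PCTR3 than with MCTR3 (limma adjusted p = 0.0443, 0.0119 to 0.145 over the other settings), a call kept in 7 of those 20 settings. The leading transcript of vehicle was also the leading one for 11 of 13 members of several transcripts with PCTR3, 11 with RCTR3 and 12 with MCTR3.

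Beside 8 of the members, 10 further components carried the same component number with another subcomponent number, and the rule had not chosen them. Of these 10, 5 rose and 2 fell with PCTR3, where 19.2% of all components rose and 20.1% fell, and 5 rose and 4 fell with RCTR3, where 21.7% rose and 23% fell, by the same limma threshold as above. Falls with RCTR3 numbered 2 without RCTR3 replicate 2 and 2 after rescaling to a common TPM sum, where 38.0% of all components rose and 11.2% fell. With MCTR3 none was called, and 1 had an unadjusted limma p under 0.05. The falls with PCTR3 were near the share of all components, and nothing particular to subcomponents beside members is read from these counts.

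comp137156_c2, next to comp137156_c4, had 46.2, 67.1, 44.0 and 56.9 TPM with PCTR3, 51.7, 46.9, 41.6 and 68.4 TPM with RCTR3, 38.3, 42.6, 35.2 and 44.9 TPM with MCTR3, and 34.4, 43.3, 27.5 and 10.8 TPM in vehicle. It shared the low vehicle replicate 4 with its neighbour, and its MCTR3 and vehicle libraries overlapped. The change in L was 0.999 with PCTR3 (limma adjusted p = 0.0104), 0.96 with RCTR3 (limma adjusted p = 0.0113) and 0.61 with MCTR3 (limma adjusted p = 0.521). Without vehicle replicate 4 these changes were 0.60 with PCTR3 (limma adjusted p = 0.0155), 0.56 with RCTR3 (limma adjusted p = 0.0185) and 0.21 with MCTR3. comp130022_c0, next to comp130022_c1, had 15.9 ± 3.60 TPM with PCTR3, 15.5 ± 1.03 TPM with RCTR3, 12.5 ± 2.18 TPM with MCTR3 and 10.5 ± 0.958 TPM in vehicle (SD, n = 4). On the other side, comp137816_c5 had 34.4, 31.6, 37.9 and 37.0 TPM with PCTR3, 32.9, 37.6, 36.4 and 37.8 TPM with RCTR3, 40.2, 43.8, 42.9 and 42.2 TPM with MCTR3, and 43.2, 46.0, 45.7 and 49.4 TPM in vehicle. It fell in L by 0.38 with PCTR3 (SE 0.065; limma adjusted p = 0.000396) and by 0.34 with RCTR3 (SE 0.065; limma adjusted p = 0.000574; -0.18 after rescaling, limma adjusted p = 0.0203), while its neighbour comp137816_c4 is a member. comp135403_c0, beside comp135403_c2, fell by 0.33 with PCTR3 (limma adjusted p = 0.00108) and by 0.30 with RCTR3 (limma adjusted p = 0.00158), while after rescaling its differences were -0.21 with PCTR3 (limma adjusted p = 0.0164) and -0.15 with RCTR3 (limma adjusted p = 0.0688).

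The TPM sums of the libraries moved with the compounds, at 974 ± 15.8 kTPM with PCTR3, 953 ± 17.97 with RCTR3, 1013 ± 9.78 with MCTR3 and 1065 ± 43.8 in vehicle (SD, n = 4). Rescaled to a common sum, the median change in L over the members was 1.01 with PCTR3, 1.06 with RCTR3 and 0.43 with MCTR3. After that rescaling the median of all components was 0.12 with PCTR3, 0.15 with RCTR3 and 0.060 with MCTR3. Before it they were 0.0065, 0.0078 and -0.0041. The rescaling thus moved all components about as much as the members, and the part of the TPM sums in the rises was not tested further. With median centring of each library the members' medians were 0.89 with PCTR3, 0.93 with RCTR3 and 0.36 with MCTR3, beside all-component medians of -0.016, -0.0091 and -0.0048.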

How the data were processed

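Polyadenylated RNA was sequenced in 16 libraries, per the labels. The deposited values are log2 TPM per transcript, and reads were analysed with transcript sequences of the same species, per the design text. Kallisto and sleuth appear in the submitters' processing notes, without versions or roles, and the sources used here do not give the filters. A TPM of 0 appears as a shared floor of -34.92. Linear values of a library sum to 926.1 to 1129 kTPM, and the reason that these sums vary is not stated in the labels. They were summed over 44857 transcripts into 16873 components, and L = log2(sum + 1) was used.

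Components at 1 TPM or more in at least 4 libraries (15762) were fitted with limma 3.58.1 in R 4.3.3, with 4 group means, an intensity trend, two-sided tests and Benjamini-Hochberg adjustment over all of them. Transcript shares used log2((transcript + 0.5)/(rest + 0.5)) without the trend. Both fits were tested on simulated data. Other scalings, pseudocounts, filters, a replicate block and leaving out each library were tried. No 2 libraries were identical. The labels do not say whether replicate numbers pair the samples, and the main fits did not pair them. Of 24 same-numbered pairs, 8 had a correlation of deviations over 0.1. Differently numbered pairs were not compared, so these values cannot decide it.

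The members and lists were chosen with earlier results of these data known. Because identifiers have no gene names, the labelled tissue was not checked against marker genes, no sequence is shown, and at most 2 on each side were named per comparison: those with the largest mean change, the highest vehicle level, the lowest limma p, or the highest and lowest MCTR3 share of the change, and those nearest the size threshold.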

Additional observations from a re-analysis of the deposited data

Results flagged for a closer look

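PCTR3 and RCTR3 differed from MCTR3 in their change against vehicle for 22 and 24 of the 27 components (limma adjusted p under 0.05), where the rule favoured such differences. In 108 groups of 4 libraries (27 components by 4 groups), 7 held 1 library far from the other 3 by Dixon's criterion, and chance flags about 1 in 20. Vehicle replicate 4 was the low library for comp125074_c0 (6.41 TPM), comp135650_c0 (16.2 TPM), comp137156_c4 (2.58 TPM) and comp138279_c3 (65.0 TPM). RCTR3 replicate 1 was the high one for comp130119_c1 (28.03 TPM) and comp143021_c0 (343 TPM), and MCTR3 replicate 1 for comp136796_c0 (32.0 TPM). Among measures of whole libraries, the median difference of the 27 components from their vehicle mean was -0.22 in vehicle replicate 4, the TPM sum was 926.1 kTPM in RCTR3 replicate 2, and 25426 transcripts were at 1 TPM or more in MCTR3 replicate 1, each far from the other libraries of its group.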

How the results depend on the processing

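The number of components meeting the conditions was 27. It was 76 after rescaling to a common TPM sum, 44 with a pseudocount of 0.1, 7 with a size threshold of 1.0 and 98 with one of 0.5. With median centring of each library it was 20, of which 19 were among the 27. It was 15 to 67 when 1 library was left out. Without 1 library, the count of members higher with PCTR3 than with MCTR3 was 14 to 22, and that with RCTR3 17 to 24. Members with a changed transcript share numbered 1 to 4 for PCTR3 and 1 to 6 for RCTR3 against vehicle, and 0 to 3 for PCTR3 and 1 to 3 for RCTR3 against MCTR3. Over all 5801 components the numbers called in the same fits were 431 to 1084 and 746 to 1406 against vehicle. Against MCTR3 they were 24 to 403 and 158 to 584. For PCTR3 against MCTR3 the count of members was 1 with a share pseudocount of 0.1, and it was also 1 with the replicate block, in place of 2. With the block, 1 member in place of 0 had an unadjusted limma p under 0.05 for PCTR3 against RCTR3. With 1 library left out in place of the block, 0 to 2 members had such a p. The counts of adjusted calls with the block were otherwise within 1.5 times of those without it. Whether replicate numbers pair the samples is not known (correlations of same-numbered deviations from -0.24 to 0.37). The counts of adjusted calls in members for MCTR3 against vehicle and PCTR3 against RCTR3 were 0 in all settings run. The cause of these changes was not tested. Precision rests on 4 libraries per group, since depth is unknown.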
